A study of Mus musculus with 16 samples.

Results

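The genes described here are 41 mitosis genes of the mouse uterus, chosen by symbol from the deposited expression table: the cyclins and kinases of late cell cycle, the spindle and kinetochore proteins, the cytokinesis proteins and the factors that transcribe them. All 41 symbols were found among the 31274 genes of the table. Of these, 38 had a mean of at least 1 FPKM (fragments per kilobase of transcript, scaled to the mapped fragments of the library) and entered the tests, together with the other genes above that level, 15408 in all. Bub1, Ttk and Cenpe lay below it and are described apart. Whole uteri of 2 mouse strains were compared. Both strains carried Cre recombinase at the Pgr locus (the progesterone receptor gene) together with a Cre-activated transgene behind a stop cassette, for receptor isoform A in PgrcrePgrALsL/+ mice (PRA) or for isoform B in PgrcrePgrBLsL/+ mice (PRB). All mice had been ovariectomized for 2 weeks, and the uterus was taken 6 h after oil, the vehicle, or progesterone (P4). Each of the 4 groups (PRA oil, PRA P4, PRB oil, PRB P4) held 4 libraries, labelled as biological replicates 1 to 4. The mice had been housed with littermates until 8 weeks of age. A treatment field of the labels, repeated for every library, names mated females at day 4 of pregnancy instead, which goes against the titles, the surgery and treatment fields and the series design, so the latter were followed. No group without a transgene was used, so each strain comparison sets one transgene against the other. Recombination follows Pgr-Cre, that is, cells that express the receptor gene, and in whole tissue a change in the number of dividing cells cannot be told apart from a change in their RNA per cell.

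Mitosis separates the copied chromosomes into 2 daughter cells. CDK1 with its B-type cyclins drives entry, Aurora and Polo kinases build the spindle, the kinetochore ties chromosomes to microtubules, and the spindle checkpoint holds the anaphase-promoting complex (APC/C) until every chromosome is attached. The RNAs of these proteins are made mainly in G2 and M phase, through promoters read by the MuvB complex with B-MYB (Mybl2) and FOXM1, and their abundance in a tissue is commonly read as a measure of its dividing cells. In the rodent uterus estrogen drives division of the epithelium, while progesterone restrains it there and prepares the stroma for division.

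Many mitotic promoters share a pair of short motifs: the CHR element TTTGAA, the MuvB contact, and CCAAT, the box bound by NF-Y. In the RefSeq promoter set (GRCm38.p6, windows of 300 bases from 250 before the start to 50 after it), 36 of the 41 genes had an entry, giving 38 promoters; Aurkb, Ccna2, Foxm1, Kif20a and Tpx2 had none. Searched on both strands, TTTGAA stood in 28 of the 38 promoters (73.7%), against 17.9% of all 32851 promoters. CCAAT stood in 29 (76.3%), against 37.4%, and both in 25 (65.8%), against 6.95%. Birc5, Mad2l1, Melk, Mybl2, Nuf2 and Nusap1 held neither. A match is a description of these letters and not a site. The 7 stretches below, 120 bases directly before the start and read along the gene, are those of the genes whose values carry the results, with Cdk1 and Cdc20 as typical members. Capitals mark TTTGAA and CCAAT or their reverse complements TTCAAA and ATTGG. The motifs do not overlap in the stretches shown.
Cdk1, chr10:69352913-69353032, minus strand: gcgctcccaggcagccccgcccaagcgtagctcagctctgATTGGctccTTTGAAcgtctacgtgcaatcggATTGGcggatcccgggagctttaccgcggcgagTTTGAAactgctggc
Ube2c, chr2:164769809-164769928, plus strand: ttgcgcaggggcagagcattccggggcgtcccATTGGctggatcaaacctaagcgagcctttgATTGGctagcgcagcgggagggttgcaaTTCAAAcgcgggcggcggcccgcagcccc
Top2a, chr11:99024190-99024309, minus strand: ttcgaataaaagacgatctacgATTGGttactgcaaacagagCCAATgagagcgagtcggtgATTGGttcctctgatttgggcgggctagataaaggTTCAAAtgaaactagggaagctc
Cdc20, chr4:118437344-118437463, minus strand: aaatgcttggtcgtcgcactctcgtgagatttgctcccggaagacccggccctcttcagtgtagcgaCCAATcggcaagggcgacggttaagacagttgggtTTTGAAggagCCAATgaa
Bub1b, chr2:118598091-118598210, plus strand: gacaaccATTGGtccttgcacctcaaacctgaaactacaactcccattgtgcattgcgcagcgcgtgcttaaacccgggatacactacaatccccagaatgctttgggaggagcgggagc
Mybl2, chr2:163054515-163054634, plus strand: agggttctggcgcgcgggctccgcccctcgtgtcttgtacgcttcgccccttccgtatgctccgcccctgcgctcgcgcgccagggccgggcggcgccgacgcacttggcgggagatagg
Birc5, chr11:117849117-117849236, plus strand: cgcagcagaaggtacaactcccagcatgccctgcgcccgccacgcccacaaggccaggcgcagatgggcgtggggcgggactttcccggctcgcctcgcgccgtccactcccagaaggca

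Within these stretches, Top2a held TTTGAA 23 bases before the start and CCAAT 58, 78 and 98 bases before it. Cdk1 held TTTGAA 15 and 71 bases before the start and CCAAT at 48 and 80 bases. Bub1b held CCAAT only, 113 bases before the start, and Mybl2 and Birc5 held neither motif. The whole promoter window of Bub1b also held 1 TTTGAA, which its stretch does not contain, so that promoter counts among those with both motifs.

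Across the series, the deposited values sum to between 499748 and 595748 FPKM per library, and the sums of the 8 P4 libraries all lay above those of the 8 oil libraries. Fragment counts are not used here, but the spacing of low values gives an estimate of 60100000 to 73000000 fragments per library. On that estimate a member rested on a median of 673 fragments, the least being 23 for Bub1. The 120 pairs of libraries correlated at 0.853 to 0.976 and none was identical. Pgr itself, summed over isoforms and so unable to tell the transgenes apart, measured 64.9 ± 5.52 FPKM with oil and 73.9 ± 1.80 with P4 in PRA, and 83.5 ± 4.49 with oil and 112 ± 22.3 with P4 in PRB (mean ± SD, n = 4). Replicate 3 of PRB P4 had 78.5 FPKM of Pgr, below the 79.4 to 87.6 of the PRB oil libraries, while the other 3 had 121, 122 and 126 (123 ± 2.41, n = 3). Epithelial, stromal and smooth muscle markers were present in every library, and no marker searched was at 0 throughout. Replicate 3 of PRB P4 stood apart from its group: Emr1, a macrophage marker, measured 18.4 FPKM there and between 1.70 and 3.11 in the other 15 libraries, and its 12 leukocyte markers summed to 66.4 FPKM, against 31.3 to 40.1 in the other 3, although only 5 of the 12 were above those 3 and 5 were below. Its 11 epithelial markers summed to 1651 FPKM, against 1337 to 1415, with 7 above the other 3, and its 7 smooth muscle markers to 1098 FPKM, against 1260 to 1833, with 5 below. Many of the medians, counts and calls below that rest on this library are given with and without it, but some are given with it only. Its part in them beyond that was not tested. Library names place PRA in row A and PRB in row B, with oil before P4, so position cannot be told apart from the groups.

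Mitosis RNAs were present in every uterus, but replicates of one group differed as much as the groups did. The mean log2(FPKM + 1) of the 41 genes was 1.25, 2.35, 1.30 and 2.72 in PRA oil, and 2.38, 2.36, 2.36 and 2.81 in PRA P4 (replicates 1 to 4 in order, here and below). It was 1.90, 1.61, 2.34 and 2.63 in PRB oil, and 1.94, 2.07, 1.04 and 2.31 in PRB P4. PRA oil thus fell into a low pair and a high pair, PRA P4 was tight apart from replicate 4, and PRB P4 had one low library, the one that stood apart in Emr1. The group means were 1.90 ± 0.74, 2.48 ± 0.22, 2.12 ± 0.45 and 1.84 ± 0.55 (SD, n = 4), with overlapping ranges. Without replicate 3 the mean of PRB P4 was 2.11 ± 0.18 (n = 3).

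**Figure D1:**
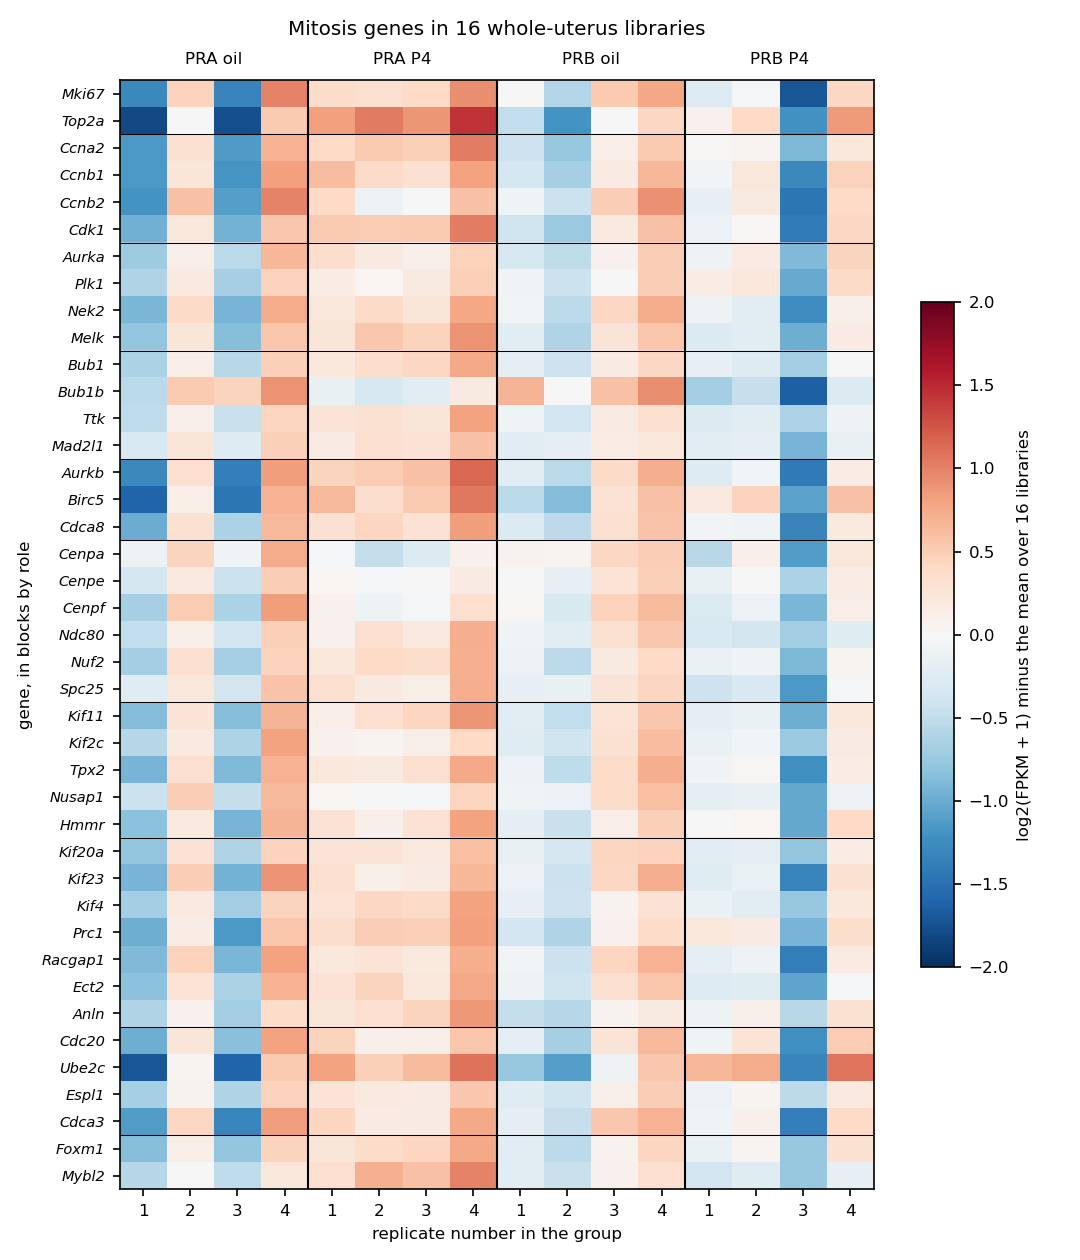
Level of each of the 41 mitosis genes in each of the 16 libraries, as log2(FPKM + 1) relative to the gene's own mean over the libraries (colour scale), with genes ordered by role and libraries by group and replicate. Whole columns share a colour: replicates 1 and 3 of PRA oil and replicate 3 of PRB P4 are low for nearly all genes, and replicate 4 is the highest of its group in all 41.

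The genes went up and down together from uterus to uterus. Replicate 4 was the highest of its group for all 41 genes in each of the 4 groups, and replicate 3 of PRB P4 was the lowest of its group for all 41. In PRB oil, replicate 2 was the lowest for 39 genes; in PRA oil, replicate 1 was the lowest for 24 and replicate 3 for 17. Over the 16 libraries, after each group's mean was taken away, each gene was correlated with the mean of the other 40. The median r was 0.986, and 39 of 41 genes were above 0.9; the lowest were Bub1b at 0.855 and Cenpa, the centromeric histone H3 variant, at 0.887. These correlations are a description: all genes of a library share its dissection, depth and scaling.

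The features whose deviations were most like those of the 41, out of 13143 named genes compared, were Kif18b (r = 0.995), Cep55 (0.994), Spag5 (0.992), Sgol2, Ckap2l, Ckap2, Cdca2, Cks2, Knstrn and Kifc1 (0.986), a kinesin that crosslinks spindle microtubules. All 10 belong to a wider list of mitosis genes, drawn up for comparison with earlier results of these data known. The 71 tested genes of that list had a median r of 0.922, from Pttg1 at -0.739 to Kif18b.

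The marker of cycling cells Mki67 shows this spread. It measured 1.52, 7.52, 1.44 and 11.2 FPKM in PRA oil and 6.96, 6.71, 7.14 and 10.8 in PRA P4. In PRB it measured 5.17, 3.13, 7.85 and 9.50 with oil and 4.16, 5.03, 0.884 and 7.24 with P4. Every P4 value lay inside the range of the oil values of its strain, or below it. Cyclin B1, which activates CDK1 at entry, had the same shape: Ccnb1 measured 0.595, 3.17, 0.551 and 5.24 FPKM with oil and 4.40, 3.61, 3.36 and 5.16 with P4 in PRA. In PRB it measured 1.77, 1.21, 2.97 and 4.58 FPKM with oil and 2.39, 3.11, 0.437 and 3.84 with P4.

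**Figure D2:**
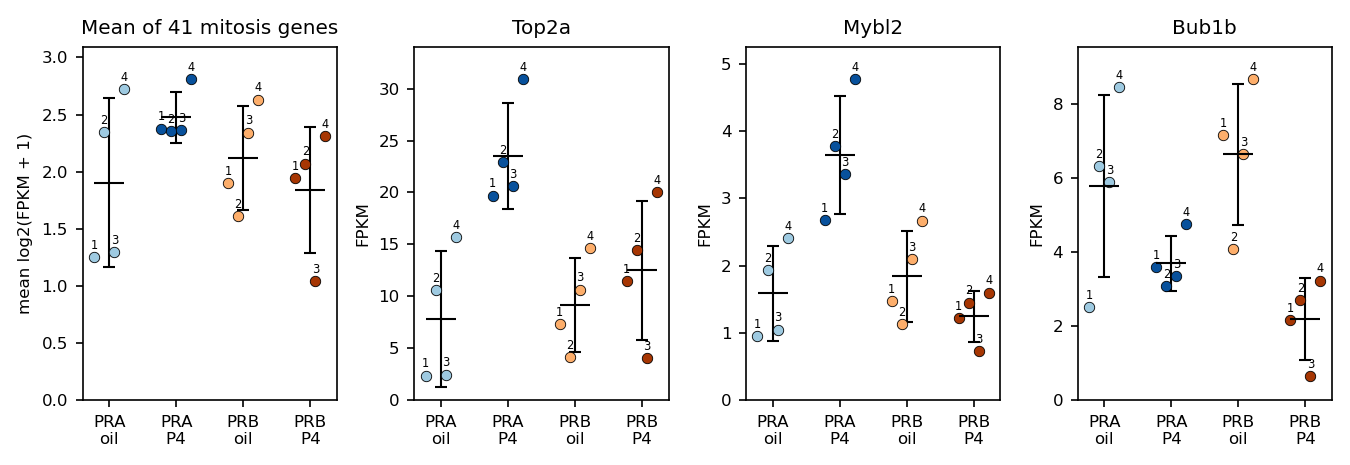
Level in each library by group (points numbered by replicate, bar and whiskers the mean ± SD, n = 4) of the mean of the 41 genes in log2(FPKM + 1), and of Top2a, Mybl2 and Bub1b in FPKM. Top2a and Mybl2 of PRA P4 lie above all PRA oil values, and Bub1b of PRB P4 lies below all PRB oil values, while the mean of the 41 overlaps between groups.

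The first comparison asked what 6 h of progesterone did to mitosis genes in the isoform A strain. In PRA uteri 8 of the 38 tested genes rose with P4 and 0 fell: Top2a, Ube2c, Birc5, Prc1, Mybl2, Foxm1, Anln and Kif4. The median log2 difference of the 38 was 0.57, against 0.01 over all tested genes, and 36 of 38 were positive. The genes move together between libraries, so counts of signs or of non-overlapping genes, here and below, are not counts of independent results. P4 moved most of the transcriptome, however, so a call is common: 36.6% of all tested genes were called higher and 33.2% lower in this comparison. A call is an adjusted p under 0.05 in limma's moderated test on log2(FPKM + 1), with Benjamini-Hochberg adjustment over all tested genes, and differences are on that scale, which understates the change of low genes.

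Top2a, the topoisomerase that untangles sister chromatids, moved most. It measured 2.35, 10.6, 2.45 and 15.7 FPKM in PRA oil and 19.7, 22.9, 20.6 and 30.9 in PRA P4. All P4 values exceeded all oil values, a difference of 1.81 (SE 0.54, adjusted p = 0.00778). The call held in all 24 alternatives tried, the omission of each library in turn among them, at adjusted p of 0.00167 to 0.0306.

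Mybl2, which encodes B-MYB, the factor that activates mitotic promoters with MuvB, was the other gene whose groups did not overlap. Its level was 0.953, 1.93, 1.05 and 2.41 FPKM in PRA oil and 2.67, 3.78, 3.36 and 4.78 in PRA P4, a difference of 0.87 (SE 0.22, adjusted p = 0.00235). This call too was kept in all 24 alternatives. Over the whole table, 35.0% of tested genes had PRA P4 values all above the oil values. Foxm1, the forkhead factor that acts with B-MYB, rose by 0.72 (SE 0.30, adjusted p = 0.0453), but lost the call in 13 of 24 alternatives.

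Among anaphase genes, Ube2c, the ubiquitin-conjugating enzyme of the APC/C, measured 1.85, 8.59, 2.05 and 12.3 FPKM with oil and 15.3, 12.0, 13.4 and 18.6 with P4. Only the highest oil library overlapped the P4 range. The difference was 1.44 (SE 0.57, adjusted p = 0.0350), and 6 alternatives ended the call. Cdc20, the APC/C activator, differed by 0.50, Cdca3 by 0.68 and Espl1, the separase that cuts cohesin, by 0.47, none of them called.

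Of the chromosomal passenger complex, which corrects attachments and later guides cytokinesis, Birc5 (survivin) rose by 1.20 (SE 0.51, adjusted p = 0.0469), a call lost in 14 alternatives. Its kinase Aurkb differed by 1.04 (SE 0.48, adjusted p = 0.0678) and its partner Cdca8 by 0.63, without a call. Of 7 central spindle and cytokinesis genes 3 rose: Prc1, which bundles antiparallel microtubules, by 0.89, Anln, the contractile ring scaffold anillin, by 0.69, and the motor Kif4 by 0.65. Anln lost its call in 3 alternatives, Prc1 in 10 and Kif4 in 12. Kif20a, Kif23, Racgap1 and Ect2, the remaining 4, lay between 0.44 and 0.55 and were not called.

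The engine of mitotic entry did not pass the test. Cdk1 measured 1.54, 4.80, 1.59 and 6.19 FPKM with oil and 6.14, 6.06, 6.16 and 9.07 with P4, so that 3 of the 4 oil libraries lay below every P4 library. Its difference was 0.93 (SE 0.42, adjusted p = 0.0596), with a 95% interval of 0.04 to 1.83. Ccna2 was similar (0.93, adjusted p = 0.0564), Ccnb1 differed by 0.84 and Ccnb2 by 0.40. The kinases Aurka, Plk1, Nek2 and Melk lay between 0.36 and 0.75, and the spindle proteins Kif11, Kif2c, Tpx2, Nusap1 and Hmmr between 0.05 and 0.64, all without a call. At kinetochores, Ndc80, Nuf2 and Spc25 of the microtubule-binding NDC80 complex differed by 0.41, 0.56 and 0.29. The 2 negative values in PRA were Cenpa at -0.42 and Bub1b at -0.46 (SE 0.32, adjusted p = 0.211).

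The count and the median in PRA depend on single libraries. The median difference of 0.57 was 0.35 without replicate 1 or without replicate 3 of PRA oil, and 0.86 without replicate 4 of PRA oil. The count of higher genes was 2 without replicate 1 or without replicate 3 of PRA oil, and 22 without replicate 4 of PRA oil. It was also 2 without replicate 4 of PRA P4 and 3 to 4 without each of the others of that group. It was 4 to 5 without replicate 1 or 3 of PRB oil or replicate 1 or 2 of PRB P4, which enter only through the shared spread. Without replicate 1 of PRA oil, Bub1b was called lower, at -0.75 (adjusted p = 0.0337). Without replicate 3 of PRB P4 the count of higher genes was 12. The 11 epithelial markers together measured 849 to 962 FPKM in PRA oil and 1059 to 1338 in PRA P4 (4 rose and 3 fell), and the 8 endothelial markers 246 to 309 FPKM and 167 to 210 FPKM (4 fell). The 8 stromal markers measured 1094 to 1206 FPKM and 863 to 1048 FPKM (3 rose and 3 fell). Of all tested genes 36.6% rose and 33.2% fell. The part of these markers in the differences was not tested.

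The same treatment in the isoform B strain gave no called rise. In PRB uteri 0 of the 38 genes were called higher by limma and 2 were called lower, Bub1b and Ndc80. At an unadjusted p under 0.05 there were 4 in either direction, and all 4 (with Spc25 and Cenpa) were negative. The median difference was -0.32 and 33 of 38 were negative. Both rest in part on single libraries and on the scaling. Without replicate 3 of PRB P4 the median was -0.07, 23 of 38 were negative and 2 had an unadjusted p under 0.05. Without replicate 4 of PRB oil the median was -0.15, with 24 of 38 negative, and after quantile normalization -0.09, with 23 negative. The omission of replicate 2 of PRB oil gave -0.46 and that of replicate 4 of PRB P4 gave -0.45, each with 35 of 38 negative. P4 again moved most of the table: 36.2% of all tested genes were called higher and 32.9% lower.

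Bub1b encodes BUBR1, the checkpoint kinase-like protein that holds CDC20 inactive until chromosomes are attached. It measured 7.14, 4.07, 6.64 and 8.66 FPKM in PRB oil and 2.16, 2.70, 0.643 and 3.22 in PRB P4. All P4 values were below all oil values, a difference of -1.31 (SE 0.32, adjusted p = 0.00190). The call held in all 24 alternatives, and without replicate 3 of PRB P4 the difference was -1.02 (adjusted p = 0.00580). In PRA the oil values were 2.51, 6.32, 5.87 and 8.43 and the P4 values 3.58, 3.08, 3.35 and 4.75, where replicate 1 with oil was the only oil library below the P4 values.

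Ndc80, the kinetochore subunit that grips microtubules, measured 0.889, 0.706, 1.44 and 1.90 FPKM with oil and 0.614, 0.539, 0.234 and 0.673 with P4 in PRB. These groups did not overlap either, whereas 28.5% of all tested genes had PRB P4 values all below oil. The difference was -0.54 (SE 0.22, adjusted p = 0.0451). Without replicate 3 of PRB P4 it was -0.44 (adjusted p = 0.116), and 12 of 24 alternatives ended the call. The count in PRB was then 1, as it was without replicate 2 of PRA oil, replicate 2 or 3 of PRA P4, replicate 3 or 4 of PRB oil, or replicate 1 of PRB P4. Its partner Spc25 differed by -0.57 (adjusted p = 0.0555), or -0.35 without replicate 3 of PRB P4, and Cenpa by -0.59 (adjusted p = 0.0630).

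The genes that rose in PRA gave other values here. Top2a measured 7.28, 4.11, 10.6 and 14.6 FPKM with oil and 11.4, 14.5, 4.03 and 20.0 with P4 in PRB, a difference of 0.35 (adjusted p = 0.580) with a 95% interval of -0.81 to 1.51. It was 0.77 (adjusted p = 0.210) without replicate 3 of PRB P4. Ube2c differed by 0.64 (interval -0.57 to 1.86), and by 1.18 (adjusted p = 0.0507) without replicate 3 of PRB P4. Mybl2 measured 1.47, 1.13, 2.09 and 2.67 FPKM with oil and 1.22, 1.45, 0.723 and 1.60 with P4, overlapping, a difference of -0.33 (adjusted p = 0.195), or -0.20 without that library. Mki67 differed by -0.57, and by -0.13 without replicate 3. The 11 epithelial markers together measured 892 to 973 FPKM in PRB oil and 1337 to 1651 in PRB P4 (4 rose and 1 fell), and the 8 endothelial markers 269 to 292 FPKM and 232 to 239 FPKM (1 fell). The 8 stromal markers measured 1193 to 1326 FPKM and 949 to 1061 FPKM (2 rose and 4 fell). Without replicate 3 of PRB P4, 3 epithelial markers rose and 2 fell, and 1 stromal marker rose and 4 fell. Of all tested genes 36.2% rose and 32.9% fell. The part of these markers in the differences was not tested.

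**Figure D3:**
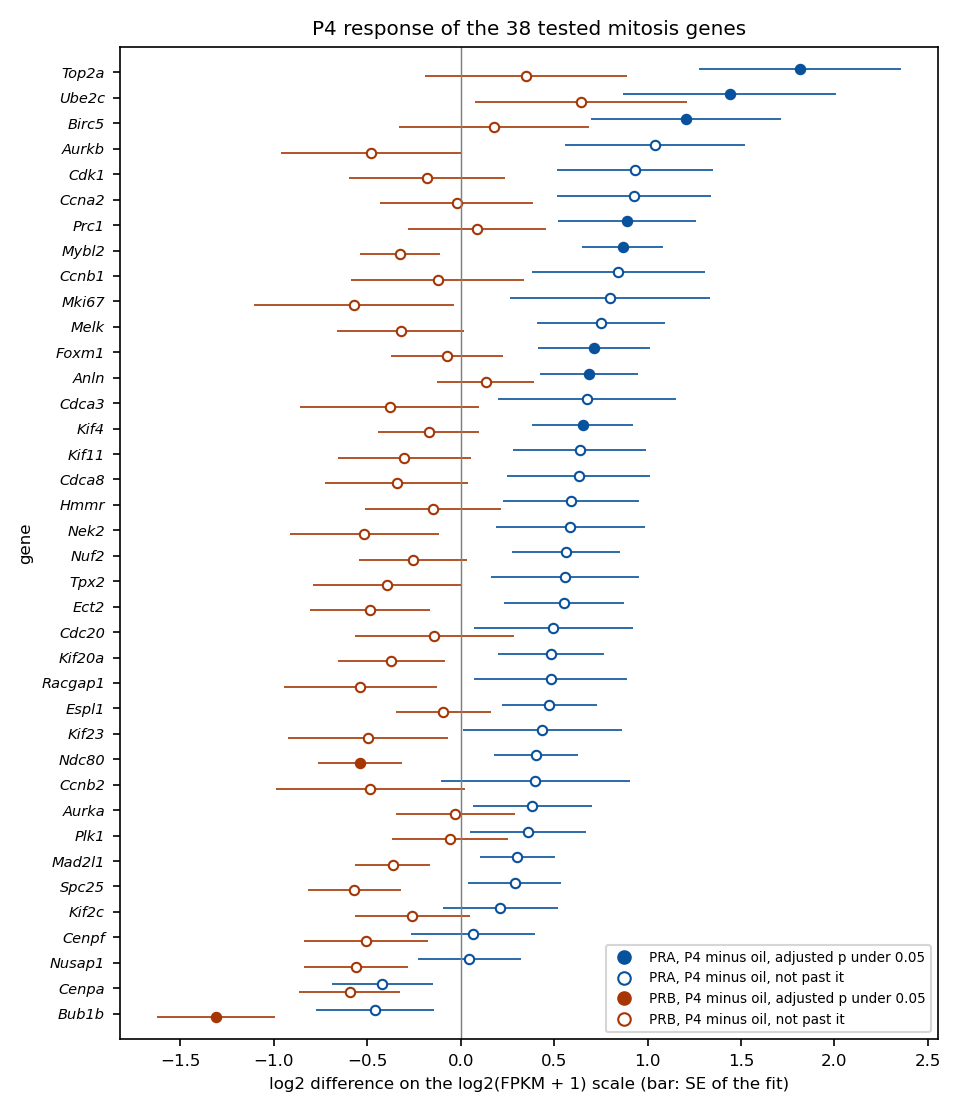
Log2 difference of P4 minus oil (horizontal axis, log2(FPKM + 1) scale, bars of 1 SE) for the 38 tested genes, 1 gene per line, in PRA (blue) and PRB (brown); filled points passed an adjusted p of 0.05. In PRA 36 of 38 values lie right of 0, with Top2a furthest at 1.81. In PRB 33 of 38 lie left of 0, with Bub1b furthest at -1.31. Of the PRB values, 23 of 38 are negative without replicate 3 of PRB P4, and 24 without replicate 4 of PRB oil.

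Without hormone no difference between the strains passed the test, but the intervals were wide. Between PRB oil and PRA oil 0 of 38 genes were called by limma, and 0 had an unadjusted p under 0.05. In this comparison 0.0389% of all tested genes were called higher and 0.0779% lower. The differences ran from -0.05 for Mad2l1 to 0.47 for Mki67, whose 95% interval was -0.68 to 1.62, so that these data do not show equal levels. The median was 0.21, and 37 of 38 values were positive. Without replicate 1 of PRA oil 18 of 38 were positive, and without replicate 3 of PRA oil 20 of 38.

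With P4, PRB uteri had lower values for all 38 genes, and 4 of them fell below PRA by the test: Mybl2, Spc25, Ndc80 and Mad2l1. None was higher. The median difference was -0.65, and 10 of 38 genes had an unadjusted p under 0.05. Without replicate 3 of PRB P4 the median was -0.37, with 35 of 38 negative and 4 at an unadjusted p under 0.05. Over all tested genes 7.75% were called higher and 8.29% lower. In 17 of 38 genes every PRB P4 library was below every PRA P4 library, a pattern found in 10.9% of all tested genes. The genes move together, so the 17 are not independent of each other.

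Mybl2 at 0.723 to 1.60 FPKM in PRB P4 and 2.67 to 4.78 in PRA P4 gave the clearest gap, -1.05 (SE 0.22, adjusted p = 0.00561). It was called in all 24 alternatives, and stood at -0.92 (adjusted p = 0.0142) without replicate 3 of PRB P4. Mad2l1, the checkpoint protein MAD2 that binds CDC20, measured 10.9, 12.2, 11.9 and 14.9 FPKM in PRA P4 and 8.03, 8.38, 4.53 and 8.54 in PRB P4. The difference was -0.71 (SE 0.20, adjusted p = 0.0275). Of the NDC80 complex, Spc25 differed by -0.81 (SE 0.25, adjusted p = 0.0402) and Ndc80 by -0.74 (SE 0.22, adjusted p = 0.0392), while Nuf2 differed by -0.69 without a call (adjusted p = 0.120).

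Without replicate 3 of PRB P4 only Mybl2 was called: Mad2l1 then stood at -0.52 (adjusted p = 0.0585), Ndc80 at -0.64 (0.0837) and Spc25 at -0.59 (0.0923). The count was likewise 1 without replicate 2 or 4 of PRA P4, and 2 without replicate 3 of PRA P4 or replicate 1 or 2 of PRB P4. Ube2c was among the genes with the smaller differences, at -0.47, and was 0.07 without replicate 3 of PRB P4.

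The test of whether the strains responded differently called no member. For the response in PRB minus that in PRA, limma called 0 of 38 genes, with 8 at an unadjusted p under 0.05. Of all tested genes 1.47% were called with a higher and 0.811% with a lower response in PRB. All 38 values were negative, with a median of -0.87, but the 4 groups behind them are the same ones compared above. The median was -0.66 without replicate 1 of PRA oil and -0.68 without replicate 3, each with 2 genes at an unadjusted p under 0.05. Without replicate 4 of PRA oil it was -1.16, with 28 such genes. The nearest to a call was Mybl2 at -1.19 (SE 0.31, adjusted p = 0.0584, 95% interval -1.84 to -0.54). It was called in 5 alternatives, among them the one without replicate 4 of PRA oil (-1.34, adjusted p = 0.0309), that without replicate 1 of PRA P4 and that without replicate 2 of PRB oil. Aurkb at -1.52 (adjusted p = 0.283), Top2a at -1.46 (0.367) and Mki67 at -1.37 (0.394) were larger and less precise. Without replicate 3 of PRB P4 the median was -0.62, 37 of 38 values were negative and 2 had an unadjusted p under 0.05; Mybl2 then stood at -1.07 (adjusted p = 0.0767), Top2a at -1.05 and Mki67 at -0.93.

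The 3 genes of low level were fitted when the minimum was lowered to a mean of 0.5 FPKM. Ttk, the checkpoint kinase MPS1, differed by 0.51 between P4 and oil in PRA (adjusted p = 0.0498) and by -0.70 between PRB and PRA with P4 (adjusted p = 0.0430). Bub1, a checkpoint kinase that marks centromeres, differed by 0.57 (adjusted p = 0.0529) and -0.71 (0.0696). Cenpe, the kinetochore motor, differed by 0.07 and -0.20. In PRB with P4 against oil the 3 genes lay between -0.30 and -0.27, without a call.

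The spread between uteri can be reduced by asking how each gene stood relative to the other mitosis genes of the same library. For this the mean log2 FPKM of the 41 genes was subtracted from each gene's log2 FPKM. Part of the spread stays. In PRA oil Mad2l1 stood at 2.71, 1.58, 2.67 and 1.36, and Top2a at 1.02, 1.46, 0.997 and 1.55. Shifts on this scale carry that part with them. On this scale 5 genes had all 8 P4 libraries on one side of all 8 oil libraries, pooled over the strains: Top2a, Ube2c and Birc5 above, Bub1b and Racgap1 below. The same was true of 1.98% of 15131 genes of the table treated in that way. That share is no yardstick, since the subtraction takes shared spread, in part, out of the 41 genes and puts it into genes that do not share it. With nothing subtracted, P4 and oil libraries were apart in this way for 48.8% of the 15408 tested genes and for 0 of the 38 members. No test was made on the subtracted scale.

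Top2a stood at 1.34 ± 0.24 with oil and 2.37 ± 0.12 with P4 (SD, n = 8), between 0.997 and 1.56 with oil and between 2.15 and 2.56 with P4. In PRB P4 replicate 3, where its FPKM was lowest of the P4 libraries, it stood at 2.29, inside the P4 range. Ube2c stood at 0.97 ± 0.23 with oil and 1.98 ± 0.33 with P4, and Birc5 at 0.92 ± 0.26 and 1.56 ± 0.18. The shift of Top2a was 1.17 in PRA and 0.87 in PRB, and that of Ube2c 0.82 and 1.20.

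Bub1b moved the other way. It stood at 1.12 ± 0.54 with oil and -0.23 ± 0.09 with P4, a shift of -1.43 in PRA and -1.29 in PRB. Without the subtraction its differences in the fit were -0.46 in PRA, not called, and -1.31 in PRB. Its highest value, 2.26, was in replicate 3 of PRA oil, where Bub1b had 5.87 FPKM while Mki67 had 1.44. All 8 P4 libraries lay between -0.36 and -0.09. Racgap1, the central spindle GTPase activator, moved from 0.71 ± 0.05 to 0.47 ± 0.05.

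**Figure D4:**
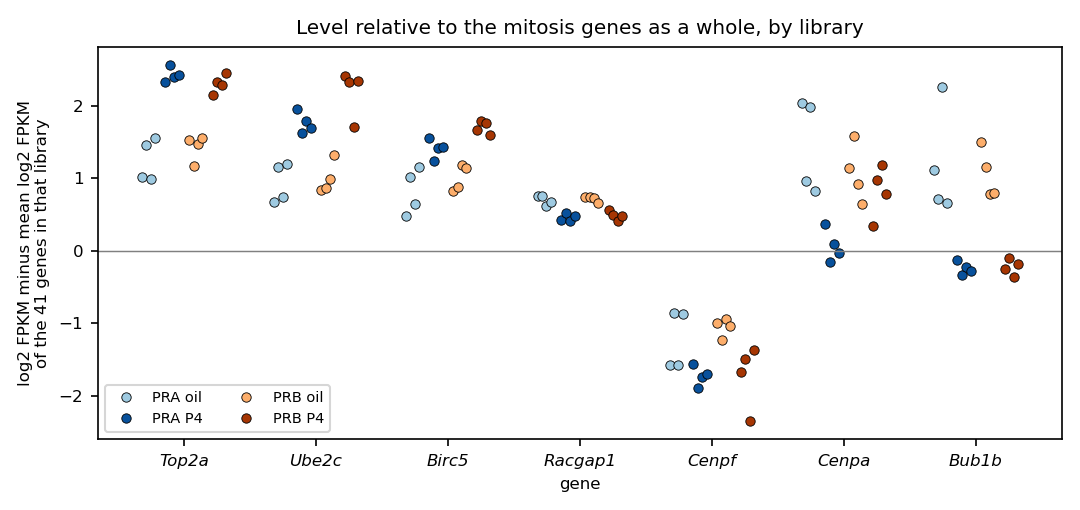
Level relative to the mean log2 FPKM of the 41 mitosis genes of the same library, for Top2a, Ube2c, Birc5, Racgap1, Cenpf, Cenpa and Bub1b, one point per library, by group. Top2a, Ube2c and Birc5 are higher in all 8 P4 libraries than in all 8 oil libraries, Bub1b and Racgap1 lower.

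Further genes of cell division, from lists drawn up for this comparison, are given beside the shares of all tested genes stated above. Among 71 tested further mitosis genes, 24 rose (33.8%, against 36.6% of all tested genes) and 5 fell (7.04%, against 33.2%) with P4 in PRA, with a median of 0.34. In PRB 7 rose (9.86%, against 36.2%) and 21 fell (29.6%, against 32.9%), with a median of -0.31. The shares that rose in PRA and fell in PRB were thus no larger than those of the whole table. With P4 22 were lower (31.0%, against 8.29%) and 1 higher in PRB than in PRA, with a median of -0.50. With replicate 3 of PRB P4 omitted, 8 rose and 18 fell in PRB, with a median of -0.13. Then 15 were lower in PRB than in PRA with P4. Pbk, a mitotic kinase, rose by 1.53 in PRA (adjusted p = 0.0160) and differed by 0.03 in PRB, or by 0.51 (adjusted p = 0.344) without replicate 3 of PRB P4. Ncaph, a condensin subunit, rose by 1.43 in PRA (adjusted p = 0.000205). The kinetochore genes Cenph and Dsn1 both fell by 0.89 in PRB, and differed by 0.30 and -0.01 in PRA. Ncapg2, a condensin II subunit, rose by 0.62 in PRA and fell by 0.56 in PRB, and this difference of responses was called (-1.19, adjusted p = 0.0490). Neither of these last calls held when replicate 3 of PRB P4 was omitted: the difference in PRB was -0.43 (adjusted p = 0.0813) and that of the responses -1.06 (adjusted p = 0.0652). Nde1, a dynein regulator, rose in both strains, by 1.48 and 2.01.

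Of 24 tested regulators of mitotic entry and exit, 13 rose (54.2%) and 4 fell (16.7%) in PRA, where 36.6% and 33.2% of all tested genes did. In PRB 12 rose and 7 fell (29.2%), against 36.2% and 32.9%. Between the strains with P4, 7 were lower in PRB (29.2%, against 8.29%), or 4 without replicate 3 of PRB P4. Ube2s, which extends ubiquitin chains for the APC/C beside Ube2c, rose by 1.11 in PRA and 1.15 in PRB. Wee1, the kinase that holds CDK1 inactive, rose by 1.11 in PRA and differed by 0.28 in PRB, or rose by 0.51 (adjusted p = 0.00597) without replicate 3 of PRB P4. Fbxo5, the APC/C inhibitor EMI1, fell by 0.63 in PRB and differed by 0.05 in PRA, and its difference of responses was called (-0.68, adjusted p = 0.0297), as it was without that library (-0.60, adjusted p = 0.0349).

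Upstream of mitosis, most DNA replication genes passed the test between the strains with P4. Of 30 DNA replication genes 25 rose (83.3%, against 36.6% of all tested genes) and 1 fell with P4 in PRA, with a median of 0.79. In PRB 4 rose (13.3%, against 36.2%) and 8 fell (26.7%, against 32.9%), with a median of -0.24, or -0.08 without replicate 3 of PRB P4. With P4 27 were lower in PRB than in PRA, against 8.29% of all tested genes, and 24 without that library. The difference of responses was called for 6, all lower, among them Gins2 (-1.58, adjusted p = 0.0287), Lig1 (-1.31, 0.0227), Gmnn (-1.46, 0.0467) and Mcm3 (-1.42, 0.0490). It was called for 4 when replicate 3 of PRB P4 was omitted, Gins2 (0.0391) and Lig1 (0.0225) among them, while the adjusted p of Gmnn was 0.0582 and that of Mcm3 0.0662. Of 21 factors that control cell-cycle transcription 15 rose (71.4%, against 36.6%) and 3 fell (14.3%, against 33.2%) in PRA. In PRB 6 rose (28.6%, against 36.2%) and 3 fell (14.3%, against 32.9%), while 8 rose and 3 fell without replicate 3 of PRB P4. With P4 6 were lower in PRB than in PRA (28.6%, against 8.29%) and 1 was higher. Without replicate 3 of PRB P4, 4 were lower. E2f1, which switches on replication genes, rose by 1.77 in PRA (adjusted p = 0.000674), differed by -0.27 in PRB, and was lower in PRB than in PRA with P4 (-1.73, adjusted p = 0.00734). E2f8, a repressor of the E2F family, rose by 1.34 in PRA and was also lower in PRB with P4 (-1.50, adjusted p = 0.00609). The difference of responses was called for neither.

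Of 21 tested G1 genes, 7 rose (33.3%) and 9 fell (42.9%) in PRA, and 6 rose (28.6%) and 9 fell (42.9%) in PRB, shares near those of all tested genes (36.6% and 33.2% in PRA, 36.2% and 32.9% in PRB). Cdkn1a, the inhibitor p21, rose by 1.64 in PRA and 2.06 in PRB, and Mycn fell by 2.18 and 2.43. Cdkn2b, the CDK4 inhibitor p15, rose by 0.97 in PRB and differed by -0.03 in PRA, and its difference of responses was called (1.00, adjusted p = 0.0254). All 5 lists were drawn up with earlier results of these samples known, so their counts describe these libraries only.

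Some members share exon bases with a gene on the opposite strand, and the sources used here do not say whether counting used strand, so their values are uncertain to that extent. The share of exon bases was 29.3% for Kif20a with Cdc23, 22.8% for Ube2c with Tnnc2, 15.1% for Kif4 with Pdzd11, 12.5% for Ccna2 with Exosc9 and 11.1% for Prc1 with Rccd1. Over the libraries, Cdc23 averaged 28.9 FPKM, Pdzd11 20.7, Exosc9 14.1, Rccd1 11.4 and Tnnc2, a muscle troponin, 0.440. The members themselves averaged 2.40 FPKM for Kif20a, 1.18 for Kif4, 8.30 for Ccna2, 12.6 for Prc1 and 10.1 for Ube2c. Locations of the genes that carried the results are, on GRCm38, chromosome 11 from 98992943 to 99024189 for Top2a, chromosome 2 from 118598211 to 118641591 for Bub1b, chromosome 2 from 163054687 to 163084688 for Mybl2, chromosome 17 from 71496100 to 71526857 for Ndc80 and chromosome 2 from 164769898 to 164778822 for Ube2c.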

How the data were processed

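RNA-seq of 16 whole-uterus libraries was analysed from one table of FPKM values per gene, deposited by the authors. Per the submitters' processing notes, TopHat2 2.0.4, Cufflinks 2.0.2, Cuffdiff and mm10 were used; no source used here gives their order, the annotation or whether strand was counted. FPKM values are scaled for depth and gene length, so count tests were not applied. Columns were matched to samples by title, and 0 were unmatched. Libraries are labelled as biological replicates.

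Values were analysed as log2(FPKM + 1). Genes with a mean of at least 1 FPKM were fitted in limma 3.58.1 (R 4.3.3) with a trended prior, with 4 group means over all 16 libraries and 5 contrasts. Tests are two-sided, with Benjamini-Hochberg adjustment over all tested genes and a threshold of 0.05. The fit was tested on simulated data. Alternatives were other pseudocounts, filters and scalings, the contrast's libraries alone, a replicate block and the omission of each library. The members and gene lists were chosen with earlier results of these data known. All members may be named; of each further list, the 4 called genes with the largest change per contrast, and the 10 genes most like the members. Promoters were taken from RefSeq (GRCm38.p6). Gene coordinates and exon overlaps come from a GENCODE annotation of GRCm38. Figures were drawn with matplotlib 3.10.9.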

Additional observations from a re-analysis of the deposited data

Results flagged for a closer look

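In PRA P4, replicate 4 stood apart above the other 3 libraries, which lay close together, in 9 of the values examined. Its mean log2(FPKM + 1) over the 41 genes was 2.81, against 2.36 to 2.38 in the others. Among kinases and markers, Mki67 measured 10.8 FPKM (others 6.71 to 7.14), Cdk1 9.07 (6.06 to 6.16), Ttk 2.10 (1.11 to 1.20) and Aurkb 9.52 (5.48 to 6.13). Among spindle and cytokinesis genes, Kif2c measured 1.76 FPKM (1.17 to 1.26), Nusap1 5.89 (4.01 to 4.25), Kif20a 3.94 (2.71 to 2.88) and Racgap1 8.00 (5.21 to 5.55).

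In PRB P4, replicate 3 stood apart below the others for Mad2l1, at 4.53 FPKM (others 8.03 to 8.54), and Nusap1, at 1.51 (3.46 to 3.72). In all, 11 of 168 groups of 4 values were marked by a gap to the nearest library larger, relative to the group's range, than Dixon's 95% critical value, and chance alone marks about 1 in 20. The genes of one library move together, so these marks are not independent.

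The P4 response differed between strains by limma for Fbxo5, at -0.68 on the log2 scale (PRB minus PRA), and Ncapg2, at -1.19, with 4 libraries in each of the 4 groups. Omitting replicate 3 of PRB P4 left Fbxo5 called, at -0.60 (adjusted p = 0.0349), but not Ncapg2, at -1.06 (0.0652). Neither belongs to the 41 genes, none of which was called in that test.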

How the results depend on the processing

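Top2a and Mybl2 in PRA, Bub1b in PRB and Mybl2 between the strains with P4 stayed past the threshold in all 24 alternatives. No called value changed sign; of 4127 uncalled values compared, 104 did. The cause of the shifts below was not tested. The count of members called higher with P4 in PRA was 8, and 3 with no filter, 18 after quantile normalization, 5 with only the libraries of the contrast and 14 with a replicate block; omitting one library gave 2 to 22. Lower calls in PRA were 0, and 0 to 1 with one library omitted. Lower calls in PRB were 2, and 1 with a pseudocount of 5, no filter or quantile normalization and 5 with a replicate block; omitting one library gave 1 to 3. Lower calls in PRB against PRA with P4 were 4, and 2 with no filter, quantile normalization or only the contrast's libraries and 7 with a replicate block; omitting one library gave 1 to 4. For the difference of responses the count was 0, and 1 with a pseudocount of 5 or a replicate block; omitting one library gave 0 to 1. The fit on the libraries of a contrast alone is not separate for that difference, which uses all groups. With a pseudocount of 0.1 the mean level was 2.15 in PRA P4 (2.48) and 1.23 in PRB P4 (1.84), as the constant itself implies. Both motifs stood in 1.93% of all promoters when only the last 150 bases were searched (6.95%), and in 60.5% of members' promoters.

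Over all tested genes, replicate numbers did not clearly pair libraries. Of 24 same-number pairs of libraries from different groups, 6 had deviations correlated above 0.1 (median 0.0324, range -0.229 to 0.312). Among 72 pairs with different numbers it was 9 (median -0.00277). In 15 of 48 comparisons a library correlated best with its own number. For the 41 genes, however, replicate 4 was the highest of its group in all 4 groups, and the replicate block raised the counts given above. Whether the numbers link libraries for these genes was not tested. Depth limits the low members: Bub1 rested on an estimated 23 fragments in its lowest library.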

Other observations

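Some genes outside the mitosis list varied with it, or against it, between replicates of one group. These were chosen after their values were seen and are given as values. Foxj1, the master factor of ciliated cells, correlated with the mean of the 41 genes at r = 0.892 over the 16 libraries after group means were removed, and Foxa2, the gland factor of the uterine epithelium, at 0.855. Neither stands for its list. Of the ovary and oviduct markers listed with Foxj1, Inha correlated at -0.553, Ovgp1 at -0.402 and Amh, whose mean lay below 1 FPKM, at 0.617. The 11 epithelial markers had a median r of -0.06, from Krt18 at -0.717 to Foxa2, with Epcam at 0.700. Foxj1 measured 1.11, 3.05, 0.965 and 3.61 FPKM in PRA oil and 2.25, 1.07, 2.76 and 3.66 in PRB oil, high in the same libraries as Mki67. With P4 it was 0.791 to 0.988 FPKM in PRA and 0.307 to 0.774 in PRB.

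Among the genes most opposed to the 41 were Tfcp2l1 (r = -0.972), Slc6a6, a taurine transporter (-0.963), and Hpgds, a prostaglandin D synthase (-0.955), out of 13143 compared. Hpgds measured 50.6, 15.5, 43.9 and 6.93 FPKM in PRA oil and 23.8, 32.1, 14.6 and 8.65 in PRB oil. With P4 it measured 1.09 to 1.37 FPKM in PRA and 1.38, 1.42, 4.89 and 1.15 in PRB, where the third library, low in mitosis genes, was the highest. Tfcp2l1, an epithelial transcription factor, was lowest in replicate 4 of each group, at 35.4, 35.4, 39.7 and 23.0 FPKM in PRA oil, PRA P4, PRB oil and PRB P4.

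The 12 estrogen-responsive genes listed went both ways, with a median r of -0.04. Ltf (lactoferrin) correlated at -0.795, Greb1 at -0.783, Padi1 at -0.768 and Clca3 at -0.645, whereas Muc1 correlated at 0.755, Aqp5 at 0.724 and Ccnd1 at 0.651. Clca3 measured 133 and 161 FPKM in replicates 1 and 3 of PRA oil, the libraries low in mitosis genes, and 45.3 and 26.8 in replicates 2 and 4. What sets replicates of one group apart was not tested, and the points share a library, its depth and its dissection.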
